A study of Mus musculus with 12 samples.

Results

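The genes of oxidative phosphorylation, nuclear and mitochondrial, were compared between mouse livers with and without hepatocyte deletion of Acly and Acss2. Members were taken by symbol: rows beginning with Nduf, Uqcr, Cox4 to Cox8, Atp5 or mt-, and Sdha to Sdhd. The rule found 97 of 12284 named genes, 84 from the nuclear genome and 13 from the mitochondrial genome. Of the nuclear members, 73 encode subunits, 36 of complex I, 4 of complex II, 8 of complex III, 10 of complex IV and 15 of complex V. A further 8 are assembly factors, and 3 are none of these by name, Atp5s, Cox7a2l and Ndufa4l2. The 13 mitochondrial members are the protein-coding genes of that genome, 7 of complex I, 1 of complex III, 3 of complex IV and 2 of complex V. The rule used no measured value.

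Polyadenylated RNA from liver was sequenced in 12 libraries, 6 of double knockout (DKO) and 6 of control (WT) livers. Both groups were mice with floxed alleles of Acly and of Acss2, which encode enzymes that make cytosolic and nuclear acetyl-CoA from citrate and from acetate. At an age of 6 to 8 weeks, DKO mice received AAV8-TBG-Cre and WT mice AAV8-TBG-GFP, and both ate a Western diet for 6 weeks, beginning 1 week after the injection. The TBG promoter acts in hepatocytes, so other liver cells are not its target, and the presence of Cre in place of GFP cannot be told apart from the deletions. Acly averaged 5.10 ± 0.86 log2 CPM in DKO livers and 7.61 ± 1.00 in WT livers (SD, n = 6 each), and fell by 2.51 on the log2 scale (limma, adjusted p = 0.0165). Acss2 averaged 4.33 ± 0.82 log2 CPM in DKO livers and 6.51 ± 0.48 in WT livers, and fell by 2.18 (limma, adjusted p = 0.00571). DKO 1 was the highest DKO library for both genes. Its Acly level of 6.60 log2 CPM was above the 6.56 of the lowest WT library, against a DKO median of 4.65, and its Acss2 level of 5.74 was below the lowest WT library at 6.12. Without DKO 1, Acly fell by 2.81 and Acss2 by 2.47 (limma, adjusted p = 0.00769 and 0.00085).

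Oxidative phosphorylation passes electrons from NADH (complex I) and succinate (complex II) through ubiquinone, complex III, cytochrome c and complex IV to oxygen, and ATP synthase (complex V) uses the proton gradient so formed. All complexes but complex II join subunits from both genomes, and the nuclear subunits are made in the cytosol and imported. In hepatocytes this machinery reoxidises the carriers reduced by fatty acid oxidation and supplies the ATP for gluconeogenesis and urea synthesis.

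Values are log2 CPM, a log scale of reads relative to the size of the library, as the authors filtered and normalized them. Each named gene was tested with limma, with Benjamini-Hochberg adjustment over all 12284 genes, and "rose" and "fell" are used for an adjusted p below 0.05. Fold changes are differences of group means, DKO minus WT, on the log2 scale. The back-transformed values of a library summed to 905964 to 1087992 CPM. Read depth is not known from log2 CPM, and values carry no counting interval. Nothing in the labels ties a library to its own mouse, and p-values therefore measured the spread between libraries. Hepatocyte markers were abundant, with a summed 90658 to 123781 CPM in DKO livers and 101518 to 119125 CPM in WT livers, while the adipocyte and striated muscle markers had no row in the table.

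The respiratory chain genes had slightly lower means in DKO livers across all complexes and both genomes, with differences mostly too small to be called for single genes. Of the 97 members, 1 fell and 0 rose, while over all genes 1.74% were called, 1.12% falling and 0.619% rising. That share is near the background and is no result about the members. The count of members that fell was 3 without DKO 6 and 0 without any 1 of the 11 other libraries, DKO 1 among them. A lower mean in DKO livers was found for 91 of the 97, against 49.2% of all genes. The median log2 fold change of the members was -0.18, or 88.0% of the WT level, against 0.00 for all genes. With quantile normalization 81 of the 97 had a lower mean, at a median of -0.13. In WT livers the members averaged 6.64 log2 CPM and all genes 3.86. The members were not compared with genes of like level. Without DKO 1, 92 of the 97 had a lower mean, and the medians were -0.17 for all members, -0.16 for the nuclear and -0.23 for the mitochondrial ones. At an unadjusted p below 0.05, 25 members were lower in DKO livers and 0 higher, while among all genes 8.47% were lower and 7.95% higher. Every DKO value lay below every WT value for 2 members, among them Uqcrc2, and for 1.38% of all genes. Members varied together across libraries, so the counts of lower members describe these 12 libraries and were not tested as a set.

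**Figure D1:**
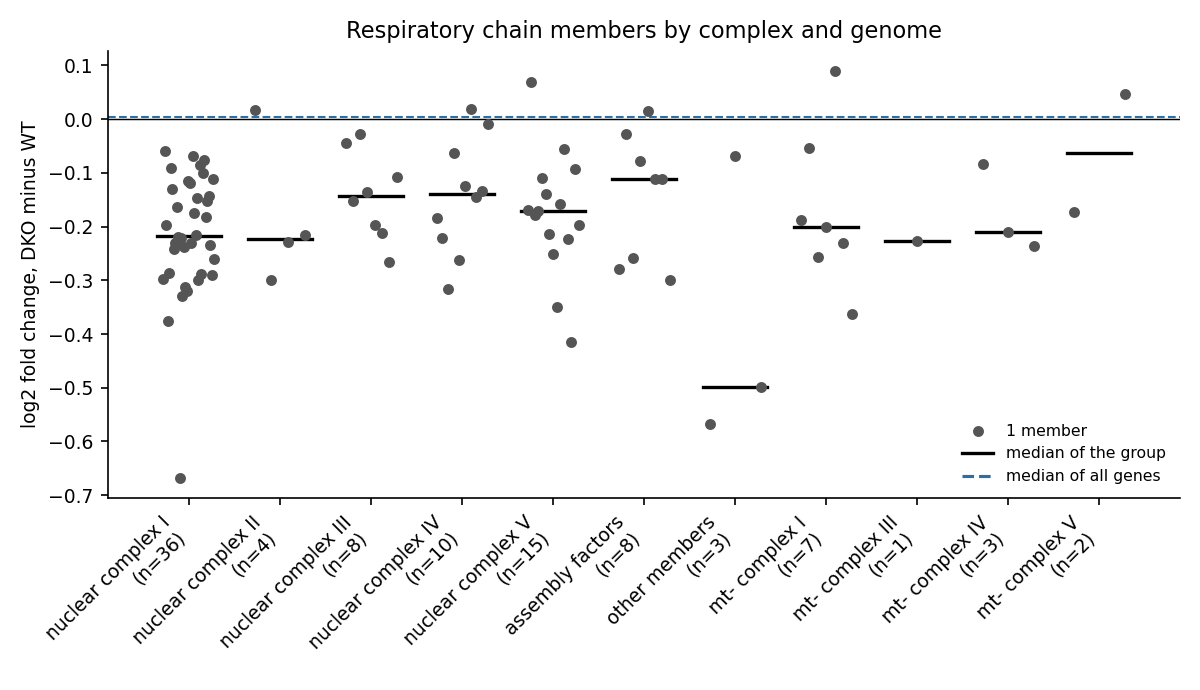
Log2 fold change (DKO minus WT, vertical axis) of each of the 97 members by complex and genome of origin, with a bar at the median of each group and a dashed line at the median of all genes. The medians of all 11 groups lie below 0. They range from -0.50 for the 3 members outside the complexes to -0.06 for the 2 mitochondrial genes of complex V. The -0.50 is the value of Ndufa4l2, a weak row with a mean of 0.50 log2 CPM over all libraries. In the same group, Atp5s differed by -0.57 at a mean of 0.48 log2 CPM and Cox7a2l by -0.07 at 6.20.

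The nuclear and the mitochondrial members had similar differences. The median log2 fold change was -0.18 for the 84 nuclear members, 80 of them lower on average in DKO livers, and -0.20 for the 13 mitochondrial members, of which 11 did. The nuclear subunits other than Ndufa9, which stood at the lowest value of the table in 7 libraries, had a mean level of 6.27 ± 0.11 log2 CPM in DKO livers and 6.45 ± 0.15 in WT livers (SD, n = 6 each). In 3 DKO libraries this mean was below that of every WT library. The mitochondrial members averaged 10.97 ± 0.23 log2 CPM in DKO livers and 11.13 ± 0.13 in WT livers, and 2 DKO libraries lay below every WT library.

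The libraries at the low end differed between the genomes. Of the 73 nuclear subunits, 26 had their lowest value in DKO 3, 19 in DKO 1 and 11 in DKO 4, and 42 had their highest in WT 5 and 19 in WT 1. Of the 13 mitochondrial members, 12 had their lowest value in DKO 4, and 7 had their highest in WT 6 and 3 in DKO 1. DKO 1 was thus low for many nuclear subunits and high for some mitochondrial mRNAs. The rows of the mitochondrial mRNAs together took 6.02% ± 0.67 of the CPM in DKO livers and 6.39% ± 0.65 in WT livers (SD, n = 6 each). Rows of nuclear copies, described below, are not counted in this share. The range of 4.83% to 6.62% in DKO livers overlapped that of 5.39% to 7.31% in WT livers. The 73 nuclear subunits took 0.90% ± 0.08 in DKO livers and 0.94% ± 0.06 in WT livers. Their ranges of 0.76% to 0.99% and 0.87% to 1.03% also overlapped.

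**Figure D2:**
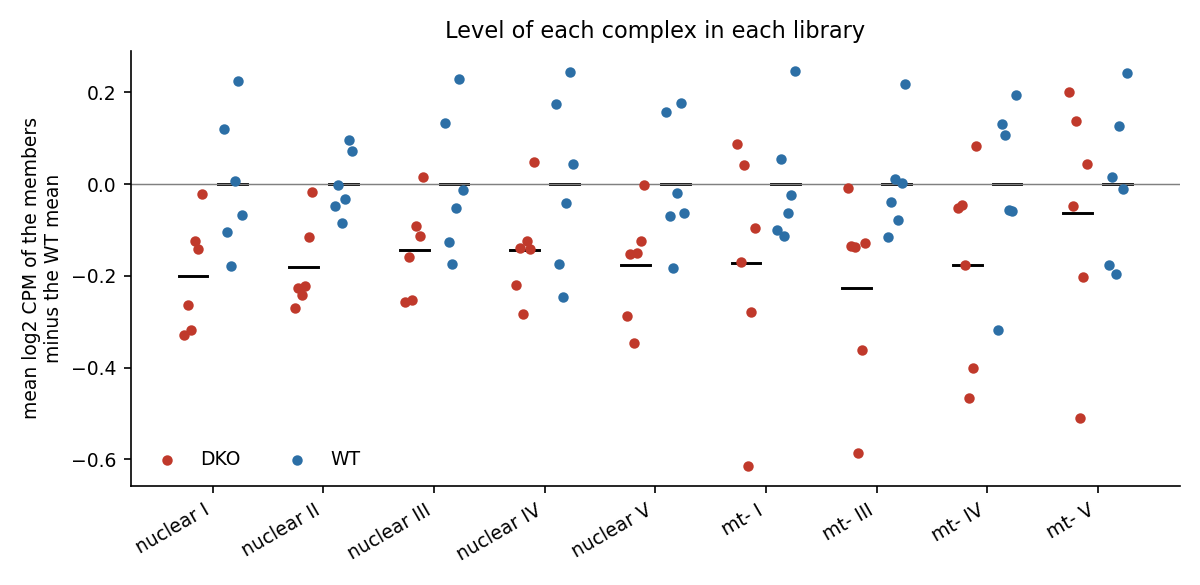
Mean log2 CPM of the members of each complex in each library, minus the WT mean (vertical axis), for DKO (red) and WT (blue) libraries, with bars at the group means and Ndufa9 left out of nuclear complex I. In nuclear complex II and in mitochondrial complex III, 5 of 6 DKO libraries lie below every WT library.

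Complex I takes electrons from NADH. All 36 of its nuclear members had a lower mean in DKO livers, their log2 fold changes ranging over -0.67 to -0.06 around a median of -0.22. An unadjusted p below 0.05 was found for 10 of them. With quantile normalization 34 of the 36 had a lower mean, at a median of -0.17. Ndufv1, the core subunit that binds NADH and FMN, had 6.62, 6.73 and 7.05 log2 CPM in DKO livers (lowest, median and highest), against 6.94, 7.05 and 7.20 in WT livers. DKO 6 alone reached into the WT range, and the difference of -0.29 ± 0.08 (SE) was not called (limma, adjusted p = 0.0864), though without DKO 6 it was (limma, adjusted p = 0.0276). Ndufs1, which carries iron-sulfur clusters of the same arm, differed by -0.09 ± 0.08 (limma, adjusted p = 0.631), less than the spread within either group. The median log2 fold change of the 7 nuclear core subunits was -0.14, and that of the 29 supernumerary ones, which surround the core, was -0.22. Their mean levels differed by -0.18 and -0.22, the latter with Ndufa9 included. In 6 DKO libraries the core mean was below every WT library, and in 3 the supernumerary mean was. Whether the 2 classes differed was not tested. Among the supernumerary subunits the smallest p values belonged to Ndufb2, at -0.31 (limma, adjusted p = 0.107), and Ndufa12, at -0.38 (adjusted p = 0.12). Ndufa9, a subunit near the ubiquinone site, stood at the table's lowest value of -3.26 log2 CPM in DKO 1, DKO 2, DKO 3, DKO 6, WT 2, WT 4 and WT 5, and at no more than 1.07 elsewhere, so its fold change of -0.67 carries little.

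Complex II oxidises succinate and is made by nuclear genes alone. Of its 4 members 3 had a lower mean in DKO livers, limma called 0, and 2 had an unadjusted p below 0.05. The median was -0.22 on the log2 scale, and -0.12 with quantile normalization. Its iron-sulfur subunit Sdhb had 7.03, 7.14 and 7.44 log2 CPM in DKO livers, against 7.34, 7.51 and 7.64 in WT livers. All DKO libraries but DKO 6 lay below every WT library. The log2 fold change was -0.30 ± 0.08 (SE), 81.3% of the WT level, and was not called (limma, adjusted p = 0.0819), though without DKO 6 it was (limma, adjusted p = 0.0291).

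The membrane anchors of complex II, Sdhc and Sdhd, differed by -0.23 and -0.22 on the log2 scale (limma, adjusted p = 0.116 and 0.325). For the flavoprotein Sdha, which holds the succinate site, the values were 8.74, 8.96 and 9.07 log2 CPM in DKO livers, against 8.83, 8.88 and 9.10 in WT livers. The groups overlapped widely, and the difference was 0.02, with a 95% confidence interval of -0.15 to 0.19 (limma, adjusted p = 0.944). Whether Sdha differed in its response from the other 3 subunits was not tested.

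Complex III passes electrons from ubiquinol to cytochrome c. All 8 nuclear members had a lower mean in DKO livers, at a median of -0.14 on the log2 scale; limma called 0, and 3 had an unadjusted p below 0.05. With quantile normalization 4 of the 8 had a lower mean, at a median of -0.04. The core subunit Uqcrc2 had 7.29, 7.51 and 7.60 log2 CPM in DKO livers, against 7.60, 7.64 and 7.79 in WT livers. The highest DKO library stood just below the lowest WT library, and the difference was -0.20 ± 0.07 (SE; limma, adjusted p = 0.165; exact permutation test, 2-sided, p = 0.00216, the smallest that 6 against 6 can give). Uqcrfs1, the Rieske iron-sulfur protein, differed by -0.21 (limma, adjusted p = 0.108) and the core subunit Uqcrc1 by -0.13 (limma, adjusted p = 0.323).

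Complex IV reduces oxygen to water. Of its 10 nuclear members 9 had a lower mean in DKO livers, at a median of -0.14 on the log2 scale; limma called 0, and 3 had an unadjusted p below 0.05. The median was -0.04 with quantile normalization, with 7 of the 10 lower. Cox5a, a matrix-side subunit, had 6.37, 6.63 and 6.77 log2 CPM in DKO livers, against 6.74, 6.82 and 6.89 in WT livers. Only DKO 6 entered the WT range (log2 fold change -0.22; limma, adjusted p = 0.145). The isoforms with a row were those found in most tissues or in liver: Cox4i1 differed by -0.18, Cox6a1 by -0.06, Cox6b1 by -0.26, Cox7a2 by 0.02, Cox7b by -0.14 and Cox8a by -0.01, with adjusted p values of 0.227 or more in limma. For Cox8a the 95% confidence interval of the difference was -0.23 to 0.22. Cox7a2l, which links complexes III and IV, differed by -0.07. Ndufa4l2, known in other tissues as a target of hypoxia signalling, stood at 0.25 ± 0.22 log2 CPM in DKO livers and 0.75 ± 0.56 in WT livers (limma, adjusted p = 0.396).

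Complex V makes ATP. Of its 15 nuclear members 14 had a lower mean in DKO livers, at a median of -0.17 on the log2 scale; limma called 0, and 5 had an unadjusted p below 0.05. Quantile normalization gave a median of -0.06, with 13 of the 15 lower. The 5 subunits of the catalytic F1 head had a median of -0.17, and the 10 of the membrane part and stalk -0.21. Atp5g3, 1 of the genes for the ring-forming c subunit, had 7.39, 7.59 and 7.83 log2 CPM in DKO livers, against 7.73, 7.95 and 8.13 in WT livers. DKO 4 was the one DKO library within the WT range. Its log2 fold change was -0.35 ± 0.09 (SE), 78.4% of the WT level, and was not called (limma, adjusted p = 0.078).

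Within the F1 head, Atp5a1, the alpha subunit, differed by -0.17 and Atp5c1, the central gamma subunit, by -0.18 (limma, adjusted p = 0.227 and 0.19). The catalytic beta subunit Atp5b had 9.66, 10.003 and 10.32 log2 CPM in DKO livers, against 9.59, 9.89 and 10.17 in WT livers. The groups overlapped, with a difference of 0.07 and a 95% confidence interval of -0.20 to 0.34 (limma, adjusted p = 0.844). Among members averaging 1 log2 CPM or more the most negative difference was that of Atp5k, a membrane subunit, at -0.41 ± 0.20 (SE; limma, adjusted p = 0.32). Atpif1, which is no member by symbol and inhibits ATP hydrolysis by the enzyme, differed by -0.15 (limma, adjusted p = 0.737).

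**Figure D3:**
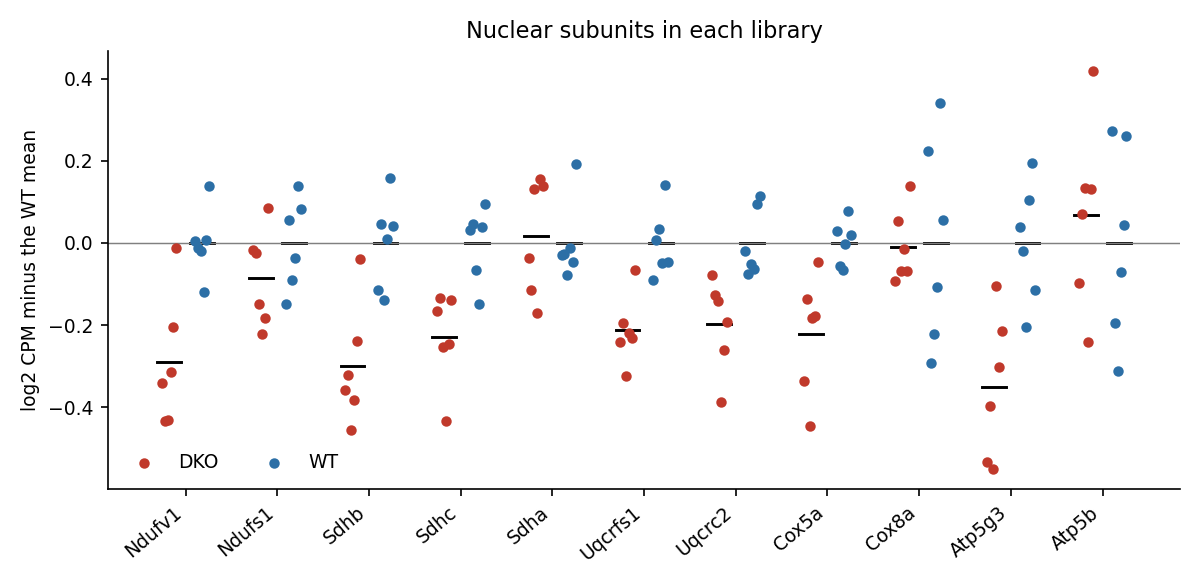
Log2 CPM minus the WT mean (vertical axis) in each DKO (red) and WT (blue) library for 11 nuclear subunits of complexes I to V, with bars at the group means. Uqcrc2 shows no overlap, Sdhb, Ndufv1, Cox5a and Atp5g3 overlap through 1 DKO library, and Sdha, Cox8a and Atp5b overlap widely.

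The assembly factors build the complexes and are not part of them. Of 8 members 7 had a lower mean in DKO livers, at a median of -0.11 on the log2 scale; limma called 0, and 0 had an unadjusted p below 0.05. Ndufaf2 differed by -0.26 (limma, adjusted p = 0.414) and Atp5sl, which takes part in complex I assembly despite its name, by -0.28 (limma, adjusted p = 0.386). Of 46 measured assembly factors outside the symbol rule 30 had a lower mean, with a median of -0.03, and 1 fell, Sco2, which delivers copper to complex IV. Sco2 had 3.18, 3.47 and 3.78 log2 CPM in DKO livers, against 4.31, 4.52 and 4.82 in WT livers, with no overlap. It fell by 1.09 on the log2 scale with an SE of 0.14, to 47.0% of the WT level (limma, adjusted p = 0.00142), and stayed called without any 1 library. In GENCODE M21, Sco2 shares 1916 bases with Tymp on the same strand. Tymp itself fell, to 5.10 ± 0.41 log2 CPM in DKO livers against 6.02 ± 0.28 in WT livers (limma, adjusted p = 0.0212), so reads of these 2 genes may have been split between them.

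The mitochondrial genome is transcribed from both strands as long precursors that are cut into the mRNAs measured here. Of its 13 mRNAs, 0 were called and 2 had an unadjusted p below 0.05, both lower in DKO livers. mt-Nd6, a membrane subunit of complex I and the one member encoded on the opposite strand to the rest, had 9.09, 9.53 and 9.90 log2 CPM in DKO livers, against 9.61, 9.88 and 10.32 in WT livers. In 4 DKO libraries it was below every WT library. Its difference of -0.36 ± 0.15 (SE) was the most negative of the 13 (limma, p = 0.0272, adjusted p = 0.232; exact permutation test, p = 0.0455). Whether mt-Nd6 differed from the mRNAs of the other strand was not tested. Strand use in the counting was not given, and the gene overlaps mt-Nd5 by 14 bases.

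The mRNA mt-Nd3, of another membrane subunit of complex I, differed by -0.26 (limma, p = 0.049, adjusted p = 0.302; exact permutation test, p = 0.0758). The other complex I mRNAs differed by -0.19 for mt-Nd1, -0.05 for mt-Nd2, -0.20 for mt-Nd4, -0.23 for mt-Nd5 and 0.09 for mt-Nd4l. The mRNA of cytochrome b of complex III, mt-Cytb, had 12.34, 12.79 and 12.92 log2 CPM in DKO livers, against 12.82, 12.91 and 13.15 in WT livers. All DKO libraries but DKO 1 were below every WT library, with a difference of -0.23 (limma, adjusted p = 0.364). Its exact permutation test gave p = 0.0216, the smallest among the mitochondrial mRNAs. The ATP synthase mRNAs mt-Atp6 and mt-Atp8, which overlap by 43 bases, differed by -0.17 and 0.05.

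**Figure D4:**
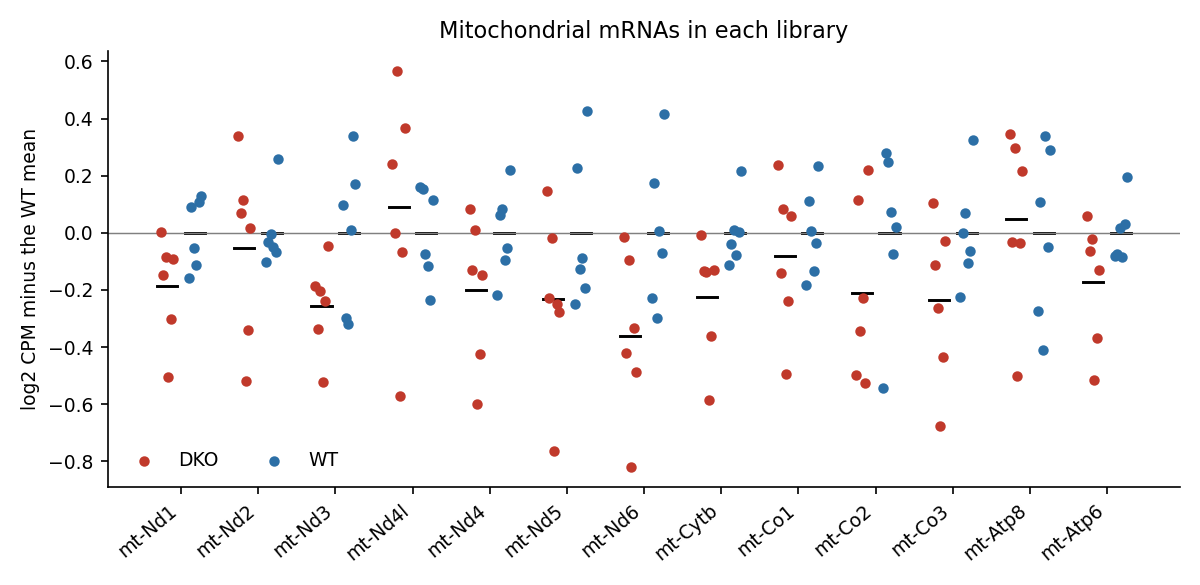
Log2 CPM minus the WT mean (vertical axis) of the 13 mitochondrial mRNAs in each DKO (red) and WT (blue) library, with bars at the group means. The difference of group means lies between -0.36 for mt-Nd6 and 0.09 for mt-Nd4l, and the groups overlap for every gene.

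The mRNAs of the catalytic core of complex IV share their sequence with copies in the nuclear genome that have rows of their own in the table. In GENCODE M21 transcripts, Gm28661 matches mt-Co2 over 681 bases, Gm28437 matches mt-Co3 over 783 bases and Gm10925 matches mt-Atp6 over 678 bases, each without a mismatch. Gm29216 matches mt-Co1 over 483 bases with 1 mismatch, and all these copies lie on chromosome 1. The aligned part begins at base 10 of the 492 of Gm29216 and at base 1063 of the 1545 of mt-Co1. Its first 61 bases hold the mismatch. They are given with the differing base in capitals, 5′ to 3′, from GENCODE M21 on GRCm38.
mt-Co1: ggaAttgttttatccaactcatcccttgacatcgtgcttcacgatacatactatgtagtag
Gm29216: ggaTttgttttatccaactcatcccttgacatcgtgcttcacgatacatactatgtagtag
Reads from the stretches without a mismatch cannot be assigned to either source by their sequence.

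The mt-Co2 row held 10.1% to 18.8% of the CPM of mt-Co2 and its copy, whereas the mt-Co3 row held 74.1% to 87.9%, the mt-Co1 row 87.4% to 92.0% and the mt-Atp6 row 95.7% to 99.98%. The copy rows varied on their own, Gm10925 from 0.50 log2 CPM in WT 6 to 7.96 in WT 2. With the copy added, mt-Co2 averaged 12.31 ± 0.24 log2 CPM in DKO livers and 12.55 ± 0.13 in WT livers, a difference of -0.24 (limma, adjusted p = 0.347), against -0.21 for its own row. The sums differed by -0.24 for mt-Co3, -0.20 for mt-Atp6 and -0.09 for mt-Co1, and own rows by -0.24, -0.17 and -0.08. With the copies counted, the mitochondrial share of the CPM was 6.81% ± 0.73 in DKO livers and 7.28% ± 0.64 in WT livers (SD, n = 6 each). Adding the copies was chosen after seeing the data and called none of these genes.

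**Figure D5:**
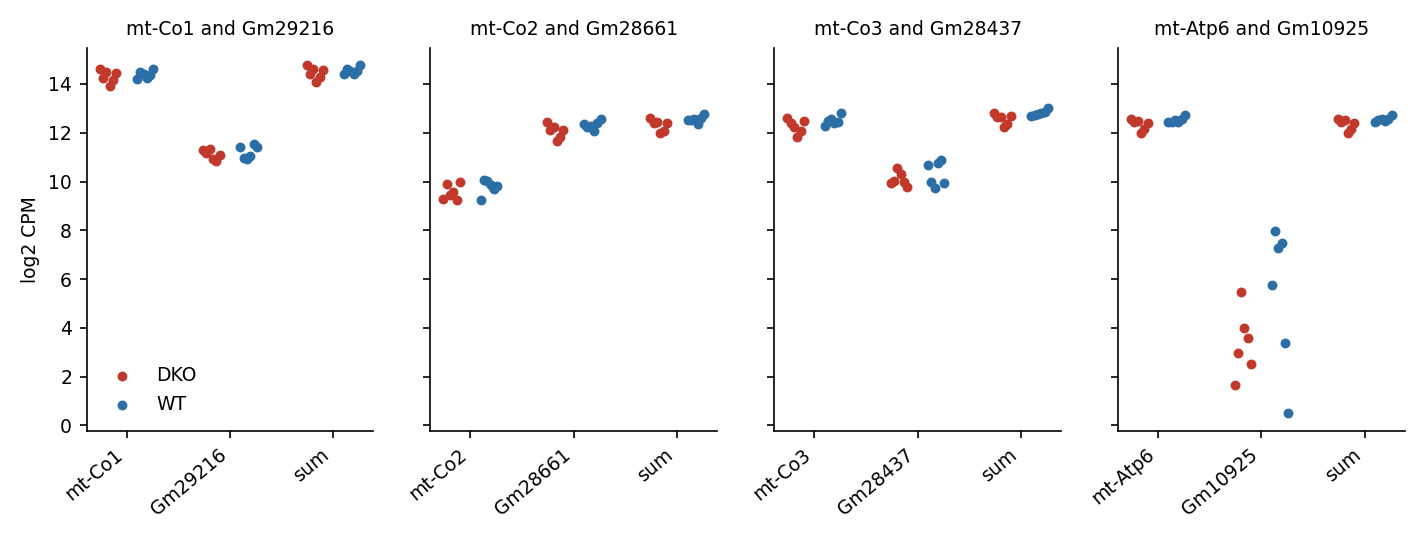
Log2 CPM (vertical axis) in each DKO (red) and WT (blue) library of 4 mitochondrial genes, of the nuclear copy that matches each, and of their sum. For mt-Co2 the copy stands above the gene's own row in every library, and for mt-Atp6 the copy is far below it.

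Many nuclear respiratory genes are known targets of NRF1, a transcription factor that binds a GC-rich palindrome. The core of that motif, GCGCANGCG, was searched on both strands, overlapping matches included, in RefSeq promoters (GRCm38.p6), from 250 bases before to 50 after the start of each gene. It was present in 22 of the 71 nuclear members with a promoter in the set (31%), and in 1469 of 9707 genes of the table (15.1%). By complex it was found in 8 of 32 promoters for complex I, 2 of 3 for complex II, 2 of 5 for complex III, 1 of 8 for complex IV and 7 of 14 for complex V. The 250 bases before the start are given for 3 genes of complexes II and V, 2 with 1 match and 1 with 3, with matches in capitals, 5′ to 3′ on the gene's strand. They are Sdhd at chr9:50603850-50604099, Sdha at chr13:74350241-74350490 and Atp5c1 at chr2:10080433-10080682, all on the minus strand of GRCm38.p6.
Sdhd: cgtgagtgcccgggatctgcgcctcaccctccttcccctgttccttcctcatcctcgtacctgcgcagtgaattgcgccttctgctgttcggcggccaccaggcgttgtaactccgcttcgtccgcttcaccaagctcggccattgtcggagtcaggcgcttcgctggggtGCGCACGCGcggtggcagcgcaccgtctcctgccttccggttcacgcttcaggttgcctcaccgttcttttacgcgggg
Sdha: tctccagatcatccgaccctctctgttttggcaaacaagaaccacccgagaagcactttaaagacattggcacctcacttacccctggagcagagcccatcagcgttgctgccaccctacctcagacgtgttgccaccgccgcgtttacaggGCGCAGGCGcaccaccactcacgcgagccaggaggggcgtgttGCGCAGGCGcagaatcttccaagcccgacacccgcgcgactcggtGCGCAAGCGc
Atp5c1: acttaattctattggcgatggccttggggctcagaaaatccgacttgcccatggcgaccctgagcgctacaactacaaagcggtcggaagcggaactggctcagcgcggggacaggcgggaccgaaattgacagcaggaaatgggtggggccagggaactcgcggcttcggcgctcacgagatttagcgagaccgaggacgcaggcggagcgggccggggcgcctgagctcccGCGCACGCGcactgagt
Sdhd and Atp5c1 had log2 fold changes of -0.22 and -0.18, whereas Sdha, which holds 3 matches, had 0.02. The 20 nuclear subunits with the motif and the 42 without it both had a median of -0.19. A match is a description of the sequence and shows no binding.

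Genes that feed the chain and serve its mitochondria are given by lists. With the assembly factors outside the rule, the unmatched subunits and the nuclear copies, these lists held 167 genes. Of the 167, 5 fell and 0 rose, while 1.12% of all genes fell and 0.619% rose. Whether any list differed from that share was not tested. Of 9 electron donors to ubiquinone and cytochrome c, 8 had a lower mean in DKO livers, at a median of -0.28 on the log2 scale, and 2 fell. These were Etfb and Etfa, the subunits of the flavoprotein that takes electrons from fatty acid oxidation. Etfb had 6.77, 6.97 and 7.10 log2 CPM in DKO livers, against 7.22, 7.29 and 7.58 in WT livers, with no overlap (log2 fold change -0.39 ± 0.09, SE; limma, adjusted p = 0.0389). Etfa had 7.60, 7.74 and 7.95 log2 CPM in DKO livers, against 7.94, 8.09 and 8.15 in WT livers, with an overlap of DKO 2 and WT 1 (log2 fold change -0.31 ± 0.07, SE; limma, adjusted p = 0.0448). Etfb stayed called without DKO 6 or WT 1 and had adjusted p values of 0.0542 to 0.0865 without any other 1 library. Etfa stayed called without DKO 2, DKO 6 or WT 1 and had 0.0751 to 0.104 without any other. Cycs, the electron carrier cytochrome c, differed by -0.19 (limma, adjusted p = 0.233), and Cyc1, the cytochrome c1 of complex III that the symbol rule does not match, by -0.21 (limma, adjusted p = 0.203).

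Of 21 genes of mitochondrial RNA processing and stability 15 had a lower mean in DKO livers, with a median of -0.06, and 2 fell. Rexo2, an exonuclease that degrades short RNAs, fell by 0.41 (limma, adjusted p = 0.0283), with 0.0551 to 0.0683 when DKO 3, WT 2, WT 4, WT 5 or WT 6 was left out. Hsd17b10, a dehydrogenase that is also a subunit of mitochondrial RNase P, fell by 0.62 (limma, adjusted p = 0.0468), with 0.0507 to 0.1 without any 1 library but WT 1. Lrpprc, which stabilises mitochondrial mRNAs, differed by -0.16 (limma, adjusted p = 0.285).

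Of the remaining lists limma called 0 genes. Lower means in DKO livers were found for 12 of 18 genes of mitochondrial DNA transcription and replication, 8 of 11 nuclear regulators, 8 of 13 genes of ubiquinone synthesis, 7 of 13 of iron-sulfur cluster assembly, 13 of 19 porins, import factors and chaperones and 8 of 10 of cristae organisation. Their median log2 fold changes were -0.03, -0.05, -0.07, -0.03, -0.06 and -0.18 in that order. At an unadjusted p below 0.05, 0, 1, 0, 2, 2 and 4 genes of these lists were lower in DKO livers, and 0, 1, 2, 0, 0 and 0 higher. Ppargc1a, a coactivator of mitochondrial biogenesis, differed by 0.26 (limma, adjusted p = 0.678), and by 0.03 without WT 4, the lowest library. The difference of Tfam, which packages and transcribes mitochondrial DNA, was -0.05 (limma, adjusted p = 0.868) and that of Polrmt, the mitochondrial RNA polymerase, -0.11.

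Markers of several other liver cell types had higher means in DKO livers. All 16 macrophage markers had a higher mean in DKO livers, at a median of 0.67 on the log2 scale, and 3 rose, Ccr2, Gpnmb and Lyz2. Their summed level was 514 to 833 CPM in DKO livers and 372 to 700 CPM in WT livers. All 8 endothelial and all 8 stellate cell and fibroblast markers also had higher means, with medians of 0.27 and 0.37 and 0 called, 5 and 6 of them at an unadjusted p below 0.05. Red blood cell markers had a median of 0.52 (0 of 5 called), cholangiocyte markers 0.27 (Cd24a rose among 4) and lymphocyte markers 0.24 (0 of 3 called). Among the cholangiocyte markers 1 had a lower mean, and among the lymphocyte markers also 1. Mean lymphocyte marker levels were low and overlapped, at -0.34 to 0.44 log2 CPM in DKO livers and -0.46 to 0.68 in WT livers. Of 14 hepatocyte markers 9 had a lower mean and 5 a higher one, and 1 fell, Asgr1. Their log2 fold changes ranged over -0.57 to 0.37 around a median of -0.15. The mean level of these markers was 11.59 ± 0.08 log2 CPM in DKO livers and 11.67 ± 0.10 in WT livers (SD). The mean of the hepatocyte markers was also subtracted in each library, a step chosen after seeing the data. After it, 79 of the 97 members still had a lower mean, at a median of -0.11 on the log2 scale, and 0 were called. That subtraction shifts every gene of a library alike, and the median of all genes was 0.08 with it and 0.00 without it. The part of the other cell types in the differences was not tested. In bulk RNA, fewer hepatocytes and less of these mRNAs per hepatocyte cannot be told apart.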

How the data were processed

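Each sample was placed in its group by its genotype label. The table the authors deposited holds log2 CPM, filtered and normalized between libraries, per the file name. Not given in the sources used here are its filter, its added count and its strand setting. Tools listed in the submitters' processing notes are limma, edgeR and kallisto 0.46.2, and the build is GRCm39 (mm39); no step is tied to any of them. Of 12285 rows, 1 had no name, held 0.0075% to 0.0148% of the CPM and was left out. The lowest value was -3.26 log2 CPM (0.104 CPM), and precision was judged from the spread between libraries.

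All named rows were fitted by lmFit and trended eBayes of limma 3.58.1, run in R 4.3.3, 2-sided and without covariates, with Benjamini-Hochberg adjustment. Exact permutation tests ran over all 924 divisions into 6 and 6. On simulated data for DKO against WT with 12284 genes, recovery was 10% at a log2 change of 0.25, 30% at 0.5 and 86% at 1, from 50 altered genes at each size, and 6 of 118 calls were false. The altered genes were drawn at random from those with a mean above 1 log2 CPM, with independent noise. Recovery for the members themselves was therefore not measured.

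Named genes were every mitochondrial member and the members with the smallest p of each complex and of the assembly factors. Also named were the extreme fold changes at a mean of at least 1 log2 CPM, tissue isoforms and catalytic or core subunits. The called genes of each list and fixed regulators and carriers were named too. Sdhd, Ndufb2, Ndufa12, Ndufa9, Atp5s, Tymp and the nuclear copies were added after their values were seen. The values of 1 member that the rule names are not reported here. The members and lists were chosen with earlier results of these data known. Nuclear copies were found by aligning GENCODE M21 transcripts, whose build differs from that of the table, so positions are given in GRCm38 only. Alternatives changed the mean trend, robust fitting, pseudocount, filter, scaling, weights, the replicate block and each library in turn. Figures were drawn with matplotlib 3.10.9.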

Additional observations from a re-analysis of the deposited data

Results flagged for a closer look

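In 5 genes 1 library stood apart from the other 5 of its group by Dixon's test at the 95% level, and chance alone flags about 1 in 20 groups. WT 6 was the high one for mt-Cytb, at 13.15 log2 CPM beside a WT median of 12.91, which also makes the mean of mitochondrial complex III 13.15. WT 6 was high as well for mt-Nd2, at 12.54 log2 CPM beside a median of 12.24, and for Sdha, at 9.10 beside 8.88. DKO 6 was high for Uqcrc1, at 8.18 log2 CPM beside a DKO median of 8.00. WT 1 was high for Acss2, at 7.45 log2 CPM beside a WT median of 6.35. Of 130 groups tested, 6 were so marked.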

How the results depend on the processing

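In all 23 alternatives the median log2 fold change stayed negative for all members (-0.21 to -0.11), for the nuclear members (-0.21 to -0.10) and for the mitochondrial members (-0.25 to -0.12), and between 79 and 94 of the 97 members had a lower mean in DKO livers. The count of called members was less stable: 0 members fell without the mean trend, with robust fitting, with quantile normalization, with CPM over nuclear rows alone and with hepatocyte markers subtracted, and 0 to 3 when 1 library was left out, in each case all nuclear. With the replicate block 2 nuclear members fell, Sdhb and Atp5g3, and over all genes 397 were called in place of 214. Whether replicate numbers pair libraries was not tested. Deviations from the group means had same-number correlations of -0.08 to 0.29. The best-matching DKO library had the same number for WT 1, WT 3, WT 4 and WT 5, and another number for WT 2 and WT 6. Over the other alternatives 92 to 373 genes were called. Of the 167 other respiratory genes, 5 fell and 0 rose, while 1.12% of all genes fell and 0.619% rose. Of those 167, 1 fell without the mean trend, with quantile normalization, with nuclear rows alone and with hepatocyte markers subtracted. With library medians subtracted and with the replicate block, 6 fell. In the settings with nuclear rows alone, the replicate block, array weights and hepatocyte markers subtracted, 1 rose. Leaving out 1 library gave 1 to 5 that fell and 0 to 1 that rose. The median of the 2 mitochondrial complex V genes turned to 0.0159 with hepatocyte markers subtracted and lay between -0.12 and 0.026 when 1 library was left out, at 0.0264 without DKO 4. With quantile normalization the medians of nuclear complexes I, II, III, IV and V were -0.17, -0.12, -0.04, -0.04 and -0.06. With hepatocyte markers subtracted they were -0.14, -0.14, -0.06, -0.06 and -0.09, beside a median of 0.08 for all genes. Counting Ndufa4 in complex IV was not run, as no row of it was analysed here. Depth was unknown, so weak rows such as Ndufa9 and Ndufa4l2 are limited in a way that could not be measured.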
